A study of Danio rerio with 6 samples.

Results

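The genes described here are the neighbours of dscaml1 on zebrafish chromosome 15. dscaml1 (ENSDARG00000098057), a cell adhesion gene related to DSCAM, lies from 12071037 to 12229874 on the GRCz11 build. Members were taken by position and level alone: genes whose models reach into the 5 Mb on either side of dscaml1 (7071037 to 17229874) and whose mean over the 6 libraries was at least 5 normalized counts. dscaml1 itself and 1 other gene were set aside. This gave 117 genes of the 21302 that passed the same level across the genome, out of 31901 in the table. Another 54 genes of the same window fell below the level, 28 of them at 0 in every library. Of the 117 genes, 41 lie on the lower-coordinate side of dscaml1 and 76 on the higher-coordinate side. 115 are protein_coding and 2 are lincRNA genes. Their mean levels ran from 6.61 to 3105 normalized counts, with a median of 179.

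RNA was sequenced from 3 pools of dscaml1-/- larvae and 3 pools of wild-type siblings, each pool holding 6 to 11 larvae. Both genotypes were progeny of heterozygous dscaml1 mutant parents on a mixed AB/TL background. The mutants are homozygous for the vt1 allele, a small deletion with a frameshift and an early stop codon. Larvae were harvested between 3.5 and 4 days post-fertilization (dpf). The labels call the material whole animals, whereas the methods describe RNA from the anterior part of the body, so the sources do not settle which it was. The study compared the genotypes across the transcriptome, and the comparison made here asks how that difference is spread along the chromosome around the mutated gene.

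Genes that lie close together on a chromosome are inherited together, because recombination rarely separates them. Larvae chosen as homozygous for a mutation therefore also tend to be homozygous for the chromosome stretch on which it sits, while wild-type siblings carry the other parental stretches. Neighbouring genes can differ in expression between such groups through their own sequence differences. In this design, the effect of losing dscaml1 and that of linked sequence cannot be told apart for any gene of the stretch.

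The libraries held 18725190 to 23516860 recovered reads, and 24082 to 24404 genes above 0. The normalized counts of dscaml1 were 333, 395 and 375 in wild-type replicates 1, 2 and 3. In mutant replicates 1, 2 and 3 they were 399.6, 336 and 355. The groups overlapped, and the log2 fold change was -0.02 (limma adjusted p = 0.967). A frameshift allele need not change the transcript level, so this gene checks no genotype label. Marker genes of other tissues were not level across the libraries. The summed hepatocyte markers spanned 42657 to 63309 normalized counts in wild type and 18965 to 38490 in mutants, with 9 of 10 lower at an unadjusted p under 0.05 from limma and 4 of them past the adjusted threshold. The summed erythrocyte markers were 19806 and 19039 in replicate 2 of the 2 genotypes, against at most 3596 in the other libraries. The summed neuron markers overlapped, at 11736 to 16332 normalized counts in wild type and 14750 to 15024 in mutants. Of 6 tested neuron markers, 2 were higher at an unadjusted p under 0.05 from limma (median log2 fold change 0.16). Their part in the levels of the neighbours was not tested. Markers of the posterior body summed to 43.4 to 83.7 normalized counts in every library.

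2 neighbours of dscaml1 were called higher in the mutants by limma, and both lie just under 2 Mb away on the higher-coordinate side. They are BX927244.1 and zgc:162193, and no neighbour was called lower by limma. Outside these 2 genes, most differences were small: 66 of the 117 genes had log2 fold changes under 0.25 in size. The 2 genes passed an adjusted p under 0.05 from limma, with a term for replicate 2 in the fit and adjustment over all 21302 genes. By that rule 0.0986% of all genes were called, 0.0235% higher and 0.0751% lower. edgeR on the recovered reads called the same 2 neighbours, and 0.0845% of all genes. Among the neighbours 0 were lower by limma and 0 by edgeR, while 15 were lower at an unadjusted p under 0.05. DESeq2 on the recovered reads called 2 lower, gab2 and coq8b, and 5 higher. The 5 were BX927244.1, zgc:162193, fxyd6, rtn2a and si:ch211-116o3.5. That is 5.98% of the neighbours, against 2.73% of all genes by the same test. With 3 pools against 3, exact permutation of a single gene could not give a two-sided p below 0.1. The methods call the pools biological replicates, but the sources do not say whether those of a genotype came from separate clutches. The p-values are therefore set against the spread between pools of larvae, which may not cover that between clutches.

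BX927244.1 (ENSDARG00000096950, chromosome 15 from 14062617 to 14064302, 1.83 Mb from dscaml1) is listed as protein_coding, with no description. The wild-type pools had 2.32, 0.577 and 1.77 normalized counts. The mutant pools had 63.7, 44.7 and 58.1. The gene was near the floor in every wild-type pool and clearly present in every mutant pool, with a wide gap between the groups. Its wild-type mean of 1.56 was under the level of 5 set for members. It passed that level only through its mutant pools (mean 55.5). In recovered reads, this was 4, 1 and 3 against 98, 70 and 79. The ratio of the summed reads, scaled by library size, was 35.6, with a 95% interval of 17.8 to 83.4 that covers counting error only. The log2 fold change on the log2(value + 1) scale was 4.52 (SE 0.31, limma adjusted p = 0.0145). That scale understates the change of a gene so close to 0 in one group. Of all 117 neighbours this gene had the largest change in these fits. Its call was lost without a term for replicate 2 (limma adjusted p = 0.324), in a fit that called 0 of all genes. Over fits without 1 library the limma adjusted p ran from 0.0339 to 0.128.

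zgc:162193 (ENSDARG00000098171, from 14203675 to 14212777, 1.97 Mb from dscaml1) is listed among RefSeq synonyms as fam115 or tcaf. TCAF proteins are known in mammals as partners of the cold-sensing ion channel TRPM8. The gene had 128, 122 and 85.7 normalized counts in wild type and 699, 661 and 390 in mutants. The lowest mutant pool, replicate 3, stood well above the highest wild-type pool, and replicate 3 was also the lowest pool of wild type. The summed reads were 2641 against 578, a ratio of 5.27 once scaled by library size. The log2 fold change was 2.34 (SE 0.24, limma adjusted p = 0.0359). The call was lost without the replicate 2 term (limma adjusted p = 0.538), in a fit that called 0 of all genes. It was also lost in every fit without 1 library, where the limma adjusted p was 0.0549 to 0.172. Its gene model shares 2391 bases with that of si:dkey-243k1.3. The latter had 26.1, 2.88 and 21.9 normalized counts in wild type and 13.6, 4.47 and 5.89 in mutants, a log2 fold change of -0.71 with overlapping groups. The strand setting used in counting is not given in the sources used here, so reads of the shared bases cannot be assigned to either gene.

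**Figure D1:**
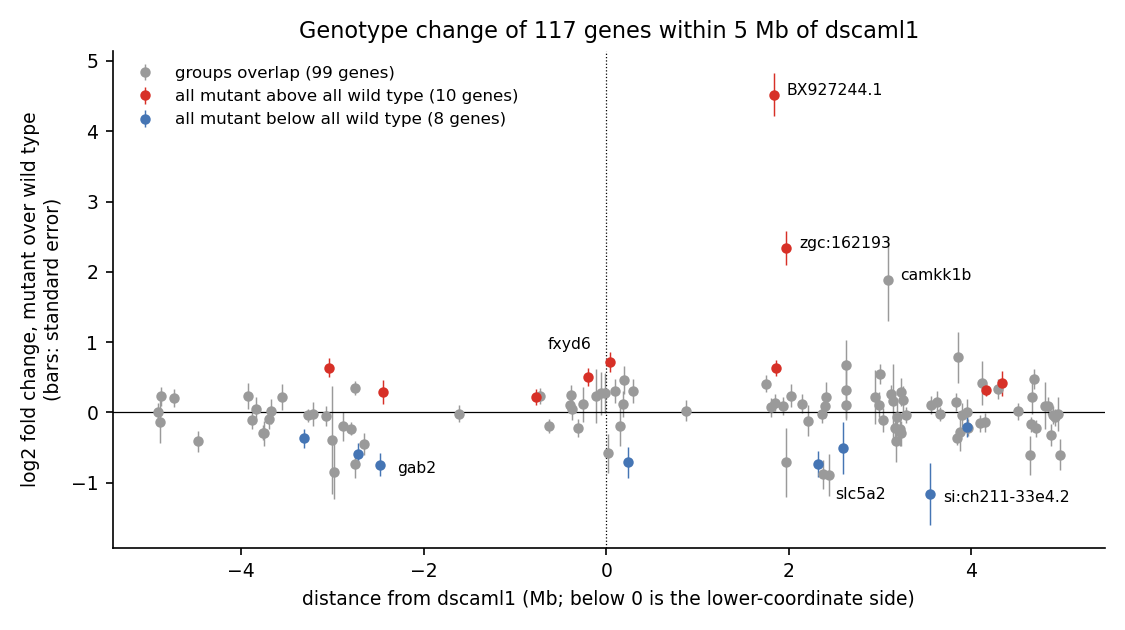
Log2 fold change (mutant over wild type, vertical axis, bars show the standard error) of 117 genes against distance from dscaml1 in Mb, with the lower-coordinate side below 0. Red points are the 10 genes with every mutant pool above every wild-type pool and blue points the 8 with every mutant pool below. BX927244.1 (4.52) and zgc:162193 (2.34) stand above the rest at just under 2 Mb.

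Both genes sit in a stretch of the higher-coordinate side in which the other genes had changes of mixed size. Between BX927244.1 and zgc:162193 lie trappc6bl (log2 fold change 0.14), si:ch211-116o3.5 (0.63), pnkp (0.09) and the overlapping si:dkey-243k1.3. Of these, si:ch211-116o3.5 had 252, 261 and 254 normalized counts in wild type and 368, 419 and 404 in mutants. Its pools within each genotype were close to each other and the genotypes did not overlap, but its adjusted p was 0.119 (limma), against 0.00138 from DESeq2. On the side towards dscaml1 lie zgc:114130 (0.07), with overlapping groups, and then zgc:162730. zgc:162730 had 2957, 1600 and 3356 in wild type and 3841, 1975 and 4899 in mutants. It was the most abundant neighbour. Each mutant pool was above the wild-type pool of the same number, the groups overlapped, and the adjusted p was 0.218 (limma). Beyond zgc:162193, dpf1 (0.24), si:ch211-11n16.2 (0.12) and numbl (-0.12) had overlapping groups. Farther out lie coq8b (-0.73), slc5a2 (-0.88) and p4ha3 (-0.89), with genes of smaller change between them.

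Of the 5 genes nearest to dscaml1 on each side, all but si:dkey-36i7.3 and il10ra had log2 fold changes above 0, and none of them passed the adjusted p from limma. 2 had non-overlapping groups, fxyd6 and prkd2, beside 9.62% of all genes. fxyd6 (ENSDARG00000100971, 0.0441 Mb away) encodes a FXYD protein, a small membrane regulator of the sodium-potassium pump. The gene had 202, 171 and 178 normalized counts in wild type and 368, 246 and 304 in mutants. All mutant pools were higher, with a log2 fold change of 0.72 (SE 0.14, limma adjusted p = 0.126, DESeq2 adjusted p = 0.00632). prkd2 (0.195 Mb, the lower side), a serine/threonine kinase of the protein kinase D family, had 337, 348 and 272 in wild type and 470, 460 and 425 in mutants (log2 fold change 0.51, limma adjusted p = 0.176). Here too every mutant pool was above every wild-type pool. The other 8 had overlapping groups and log2 fold changes from -0.58 to 0.30. On the lower side these were FO904901.1 (0.28), si:dkey-202l22.6 (0.27), si:dkey-202l22.3 (0.24) and FO704748.1 (0.12). On the higher side they were si:dkey-36i7.3 (-0.58), tmprss13a (0.30), il10ra (-0.19) and BX901957.1 (0.12). tmprss13a encodes a membrane serine protease and il10ra a receptor chain for interleukin 10.

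Several of these near neighbours differed far more between pools than between genotypes. si:dkey-36i7.3, only 0.0212 Mb from dscaml1, had 401, 21.9 and 550 normalized counts in wild type and 501, 8.94 and 301 in mutants. Replicate 2 of both genotypes was far below the other pools. si:dkey-202l22.6 went the other way, with 736, 2069 and 665 in wild type and 932, 4205 and 455 in mutants, so that replicate 2 was the highest pool of each genotype. The directions of si:dkey-202l22.6, si:dkey-202l22.3, il10ra and BX901957.1 depended on replicate 2, and reversed when it was left out of either genotype.

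**Figure D2:**
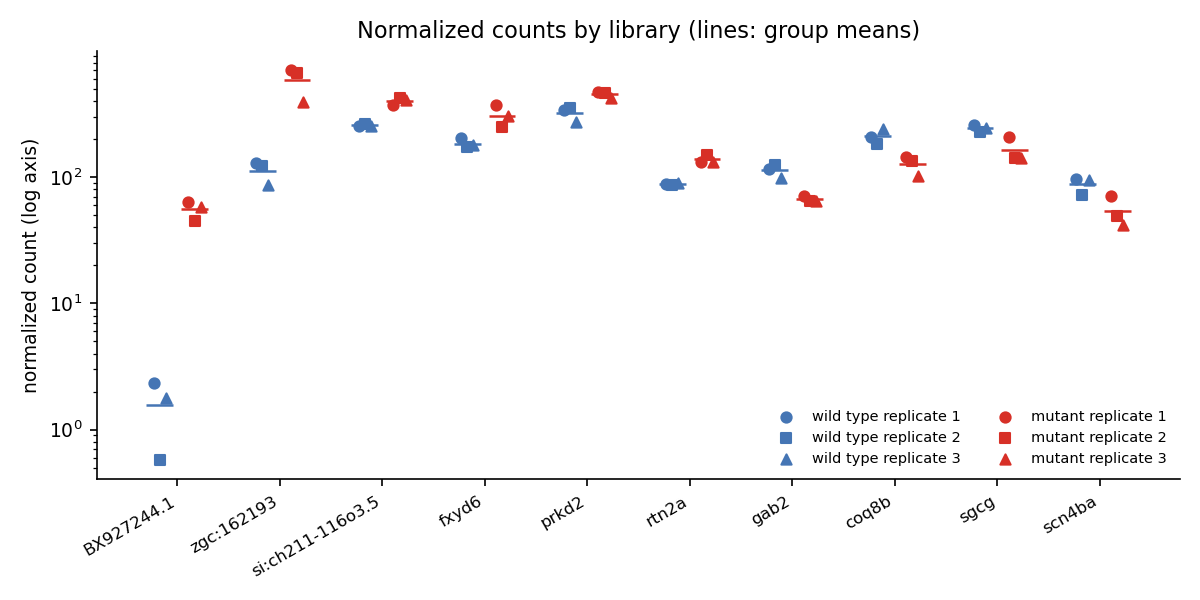
Normalized counts (log axis) of 10 named neighbours in each library, wild type in blue and mutant in red, with a marker shape for each replicate and lines at the group means. All 10 are among the 18 neighbours without overlap, so their separate groups follow from that choice. Several other named genes, such as slc5a2 and med29, had overlapping groups. Of the 10, only BX927244.1 and zgc:162193 are separated by more than 2-fold in their means.

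By function, the neighbours matched as membrane transport genes had the largest typical change. Groups were made from words in the gene descriptions, and counts are at an unadjusted p under 0.05 from limma, which 6.10% of all genes passed as higher and 7.90% as lower. Of 7 transport genes, 1 was higher and 3 were lower, beside 15.1% of all transport genes in either direction. Their median log2 fold change was 0.11 and the median size 0.71, against 0.20 over all 863 transport genes. The median of so few genes can shift with 1 more. SLC7A1 (1 of many), with a log2 fold change of 0.20, was not matched by the words. The 1 higher gene was fxyd6. scn4ba (0.237 Mb), an accessory beta subunit of voltage-gated sodium channels, had 95.9, 72.1 and 94.0 normalized counts in wild type and 70.2, 49.2 and 42.0 in mutants. All mutant pools were lower, though by little for mutant replicate 1 (log2 fold change -0.71, limma adjusted p = 0.236). The other sodium channel beta subunit, scn2b, lies beside it and had 227, 225 and 217 in wild type and 336, 290 and 216 in mutants (log2 fold change 0.31), with overlapping groups.

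The remaining 2 lower transport genes are sugar carriers. slc37a4a (2.76 Mb, the lower side) encodes the glucose-6-phosphate transporter of the endoplasmic reticulum, needed in mammals for glucose release from liver and kidney. It had 1038, 276 and 1029 normalized counts in wild type and 886, 132 and 541 in mutants. Each mutant pool was below the wild-type pool of the same number, but the pools of replicate 2 were so low that the groups overlapped (log2 fold change -0.74, limma adjusted p = 0.185). slc5a2 (2.37 Mb) encodes the sodium/glucose cotransporter that takes up glucose in the kidney tubule of mammals. It had 152, 13.8 and 141 in wild type and 96.2, 7.02 and 65.5 in mutants, with the same order within pairs and the same low replicate 2 (log2 fold change -0.88, limma adjusted p = 0.158). The hepatocyte markers given above were lower in the mutants. The summed kidney tubule markers overlapped between genotypes, at 2341 to 4559 in wild type and 1880 to 3662 in mutants. Of these 5 markers, 2 were lower at an unadjusted p under 0.05 from limma, and the median log2 fold change of the 5 was -0.02. They are slc20a1a, trpm7, slc4a4a, cdh17 and pax2a, and how far each is limited to the tubule was not tested. In pools of larvae, fewer cells of a type and less RNA per cell cannot be told apart. The summed intestine markers were 48891 to 69637 in wild type and 29318 to 51754 in mutants, and 4 of 4 tested markers were lower at that p (median log2 fold change -1.25). The part of these tissue levels in the values of both carriers was not tested.

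Among 18 signalling genes, 2 were higher and 4 lower, beside 12.6% of all signalling genes in either direction. prkd2 and camkk1b were the higher ones. gab2 (2.48 Mb, the lower side), an adaptor that links growth factor and cytokine receptors to downstream kinases, had 116, 123 and 98.1 normalized counts in wild type and 70.8, 64.5 and 64.8 in mutants. The genotypes did not overlap and the mutant pools were close together (log2 fold change -0.74, limma adjusted p = 0.144, DESeq2 adjusted p = 0.0298). arhgap35a had 959, 1045 and 1040 in wild type and 939, 722 and 711 in mutants. Its groups were parted by a narrow gap (log2 fold change -0.37, limma adjusted p = 0.288). calm3a, a calmodulin gene (-0.23), and tnfrsf19, a member of the TNF receptor superfamily (-0.29), were the other 2 that were lower. camkk1b, a calcium/calmodulin-dependent kinase kinase, is mentioned because of its large change and lies outside the rule for naming genes. It had 16.3, 20.2 and 11.2 in wild type and 147, 18.5 and 78.0 in mutants. Mutant replicates 1 and 3 were high and mutant replicate 2 was at the level of wild type (log2 fold change 1.89, SE 0.59, limma adjusted p = 0.236).

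Of 7 trafficking and cytoskeleton genes, 3 were higher and 0 lower at the unadjusted p from limma, and 0 passed the adjusted one from limma. Over all genes of this group, 16.3% passed the unadjusted p in either direction. rtn2a (3.04 Mb, the lower side), a reticulon that shapes membranes of the endoplasmic reticulum, had 88.3, 86.5 and 89.3 normalized counts in wild type and 132, 149 and 132 in mutants. The wild-type pools were almost equal and all mutant pools were above them (log2 fold change 0.64, limma adjusted p = 0.144, DESeq2 adjusted p = 0.0392). trappc4, a subunit of the TRAPP complex that tethers transport vesicles, had 492, 632 and 512 in wild type and 650, 845 and 601 in mutants. It overlapped between groups (log2 fold change 0.35, limma adjusted p = 0.211). Its model shares 390 bases with that of slc37a4a, which went the other way. flot2b, a flotillin of membrane microdomains, had 995, 1031 and 986 in wild type and 1300, 1288 and 1186 in mutants, with no overlap (log2 fold change 0.32, limma adjusted p = 0.213).

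Of 11 genes of metabolism and mitochondria, coq8b alone passed the unadjusted p. coq8b (2.32 Mb) acts in coenzyme Q synthesis in mitochondria. The gene had 207, 182 and 241 normalized counts in wild type and 145, 133 and 102 in mutants. Every mutant pool was lower (log2 fold change -0.73, limma adjusted p = 0.172, DESeq2 adjusted p = 0.0376). nars2, the mitochondrial asparaginyl-tRNA synthetase, did not overlap between the genotypes but had a change of only 0.29. Among 5 adhesion and matrix genes, 2 were lower, beside 31.0% of all genes of that group in either direction. sgcg (2.72 Mb, the lower side), the gamma-sarcoglycan of the dystrophin complex of muscle, had 259, 228 and 245 in wild type and 206, 142 and 142 in mutants. The groups did not overlap (log2 fold change -0.60, limma adjusted p = 0.194). The summed skeletal muscle markers overlapped between genotypes, at 96225 to 149089 in wild type and 61349 to 158448 in mutants, and 2 of 6 were lower at an unadjusted p under 0.05. Their part in the level of sgcg was not tested. itgae.1, an integrin alpha E gene 4.97 Mb away, had 94.1, 66.3 and 101 in wild type and 86.4, 29.4 and 69.9 in mutants, with overlapping groups (log2 fold change -0.60, limma adjusted p = 0.293).

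The 3 genes matched as gene regulation and the 6 matched as RNA and translation held 1 gene each at an unadjusted p under 0.05 from limma. The words missed some regulators, such as the hairy-related genes her8.2 and her13, which did not pass that p. med29, a subunit of the Mediator complex that links transcription factors to RNA polymerase, had 152, 200 and 125 normalized counts in wild type and 214, 298 and 187 in mutants. It was higher in each pair, with overlapping groups (log2 fold change 0.55, limma adjusted p = 0.176). The splicing factor gene srsf1a, outside the rule for naming genes, had 1343, 2243 and 1158 in wild type and 1020, 1630 and 988 in mutants (log2 fold change -0.36). The 27 genes without a functional name held both genes called higher at the adjusted p from limma, with 5 higher and 1 lower at the unadjusted p. The lower one was a weakly expressed gene (ENSDARG00000097340, 3.55 Mb) at 10.5, 10.4 and 16.6 in wild type and 3.90, 9.58 and 2.94 in mutants. Mutant replicate 2 nearly reached the wild-type pools (log2 fold change -1.16, limma adjusted p = 0.308). The lincRNA gene BX571762.2 had 199, 159 and 255 in wild type and 322, 199 and 342 in mutants, again higher in each pair with overlapping groups (log2 fold change 0.48, limma adjusted p = 0.217). 39 neighbours fell in no group. Among them were p4ha3, a collagen prolyl hydroxylase subunit (-0.89), sacs, which encodes the chaperone sacsin (-0.45), and gbe1b, the glycogen branching enzyme (-0.41), each lower in all 3 pairs with overlapping groups.

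Taken as a set, the neighbours differed between genotypes more often than genes in general, in both directions. At an unadjusted p under 0.05 from limma, 12 were higher and 15 lower, which is 23.1% of them against 14.0% of all genes tested. In 18 genes, or 15.4%, every mutant pool lay above or every mutant pool below all wild-type pools, 10 being higher and 8 lower. Over all genes this share was 9.62% (5.07% higher and 4.55% lower). Without mutant replicate 2 the shares came close, at 30.8% of the neighbours and 29.3% of all genes, while those passing the unadjusted p from limma were 22.2% and 12%. The difference had the same sign in all 3 pairs of equal replicate number for 53.0% of the neighbours and 41.6% of all genes. The median size of the log2 fold change was 0.23, against 0.18 over all genes. Signs were nearly balanced, with 62 above 0 and 55 below, and the median log2 fold change was 0.02. Of chromosomally adjacent neighbours, 61 of 116 pairs had the same sign (52.6%), close to the 51.4% of all adjacent genes on the 25 chromosomes. Without BX927244.1 and zgc:162193, 21.7% of the neighbours still passed the unadjusted p from limma and 13.9% did not overlap.

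These shares were those of chromosome 15 as a whole. Of the 767 genes tested on chromosome 15, 22.4% passed the unadjusted p from limma. On the other 24 chromosomes, the share ran from 10.3% on chromosome 4 to 15.4% on chromosome 7. Non-overlapping groups made up 15.5% of chromosome 15 and from 7.53% to 11.4% of the others. Changes of at least 2-fold were seen for 5.08% of chromosome 15, 3.42% of the neighbours, 1.98% of all genes and at most 2.68% of any other chromosome. DESeq2 called 6.00% on chromosome 15 and at most 3.84% elsewhere. Chromosome 15 was thus above each of the other chromosomes in all 4 measures. The neighbours of dscaml1 were close to their chromosome as a whole in all but the share of 2-fold changes. dscaml1 and the other gene set aside count in the chromosome 15 shares but not among the neighbours, so that contrast depends in part on the rule. Both are also left out of the sets farther from dscaml1. There, 5.98% of 184 genes at 5 to 10 Mb and 4.96% of 464 genes beyond 10 Mb changed at least 2-fold. The shares are descriptions, since genes on a chromosome are not independent. The gap remained without the replicate 2 term, when 12% of the neighbours and 10.2% of chromosome 15 passed the unadjusted p from limma, against 3.71% of all genes.

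**Figure D3:**
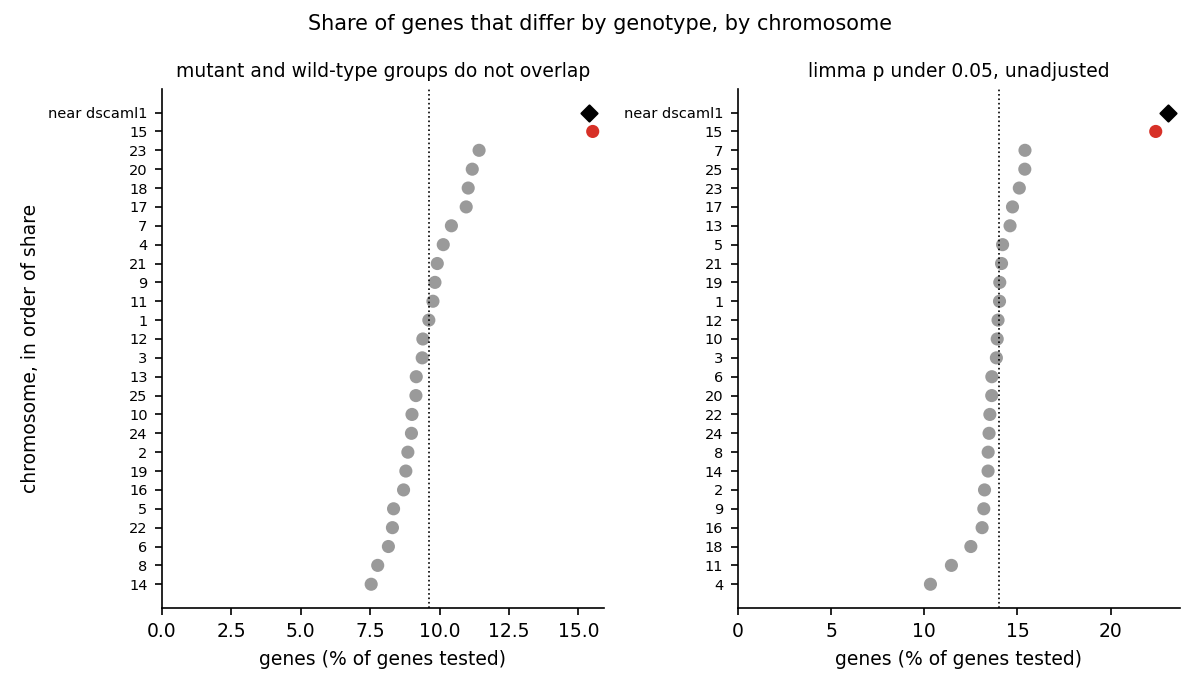
Share of genes tested (percent, horizontal axis) on each chromosome whose genotype groups did not overlap (left) or whose unadjusted limma p was under 0.05 (right). Chromosome 15 is red, the other 24 chromosomes are grey, the diamond marks the 117 neighbours of dscaml1 and the dotted line all genes. Chromosome 15 (15.5% and 22.4%) lies above every other chromosome in both panels.

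Within the 5 Mb, the size of the change fell only slightly with distance. Across the 117 genes, Spearman's correlation between the size of the log2 fold change and the distance to dscaml1 was -0.21 and Pearson's r was -0.12. The genes share the same 6 libraries and are not independent points, and the mean level had no relation with distance (Spearman's correlation 0.00). Computed in single pairs, the Spearman correlation was -0.19, -0.25 and -0.17. It was -0.09 without the libraries of replicate 2, -0.19 without BX927244.1 and zgc:162193, and -0.22 without the 9 genes between 1 and 2 Mb. Over 765 genes of the whole of chromosome 15 it was -0.01.

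The relation was not a steady decline. In the first Mb on both sides, 21 genes had a median change of 0.24 in size. Of these genes, 14.3% passed the unadjusted p from limma and 19.0% did not overlap. Over all genes tested the values were 0.18, 14.0% and 9.62%, so the share by p was close to that of all genes. The 9 genes between 1 and 2 Mb were at 0.41, 44.4% and 33.3%, and all 4 that passed were higher. These 4 were zgc:162730, BX927244.1, si:ch211-116o3.5 and zgc:162193. BX927244.1 passed the level filter only through its mutant pools, so its place among them follows in part from that filter. The median of so small a group depends on how distance is taken. Between midpoints the group held 7 genes with a median change of only 0.14, below that of every other Mb. Of these 7 genes, 42.9% still passed the unadjusted p from limma and 28.6% did not overlap. The 24 genes between 2 and 3 Mb followed, at 0.31, 37.5% and 20.8%, and here 8 were lower and 1 higher. From 3 to 4 Mb the values were 0.22, 17.9% and 10.3% over 39 genes. From 4 to 5 Mb they were 0.21, 16.7% and 8.33% over 24 genes. Beyond the window, the 184 genes between 5 and 10 Mb were at 0.20, 25% and 17.9%, so the shares at 4 to 5 Mb were not a floor. The 464 genes farther away were at 0.21, 21.1% and 14.7%. Only the 21 genes between 35 and 40 Mb passed the unadjusted p from limma less often than genes in general, at 4.76%.

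The lower genes between 2 and 3 Mb came from both sides. On the lower side, 9 genes included calm3a, slc37a4a, sgcg, sacs and gab2 as lower and trappc4 as higher. Of the 5 lower genes gab2 is the nearest to dscaml1, at 2.48 Mb. On the higher side, coq8b, slc5a2 and p4ha3 were lower and lie within 2.32 to 2.45 Mb. Between them lie FBXO46 (-0.02), si:dkey-260j18.2 (0.09) and sars2 (0.22), which had overlapping groups, so neighbouring genes differed in their values. At the edges of the window, the farthest member was itgae.1 (4.97 Mb, -0.60) on the higher side. The nearest tested genes outside were dhx40 (5.03 Mb, -0.00) on the same side and foxl2a (5.01 Mb, -0.26) on the lower side.

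**Figure D4:**
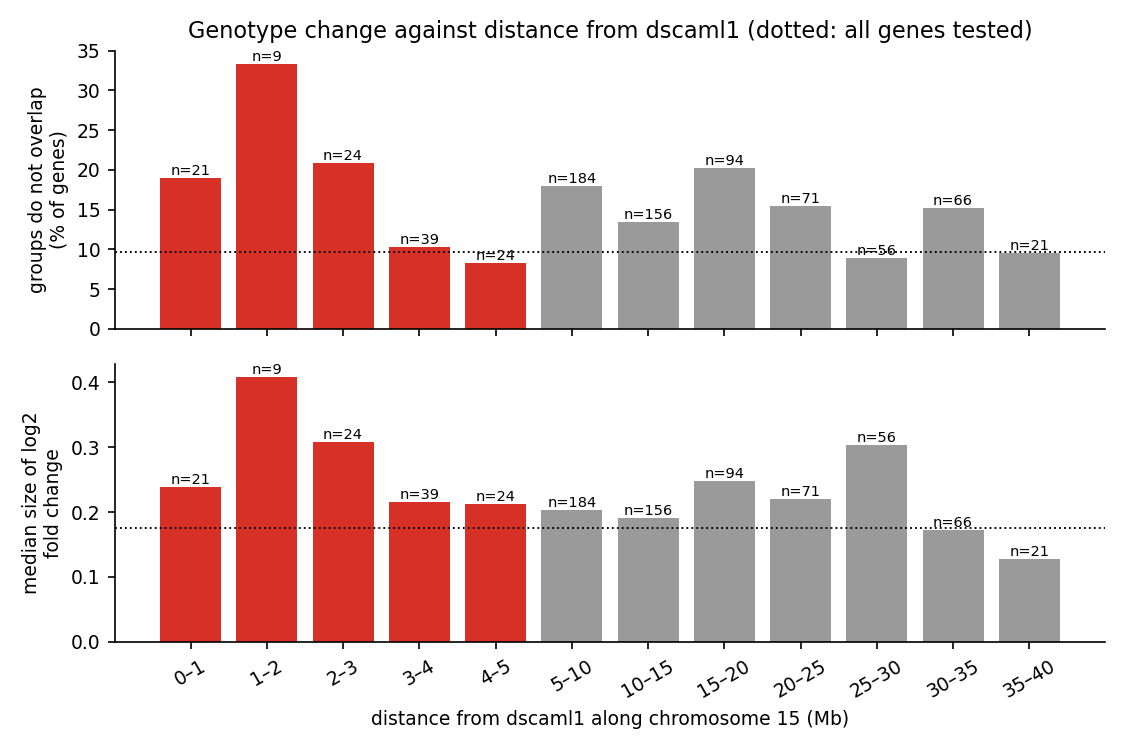
Share of genes whose genotype groups did not overlap (top, percent) and median size of the log2 fold change (bottom) by distance from dscaml1 in Mb, with the neighbours in red and the rest of chromosome 15 in grey; n is the number of genes per bar and the dotted line is the value over all genes tested. The bar at 1 to 2 Mb rests on 9 genes, and most bars beyond 5 Mb stay above the dotted line.

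Pools differed from each other in these genes about as often as in genes in general. In 33 of the 117 neighbours, replicate 2 of both genotypes stood apart from replicates 1 and 3 (limma adjusted p under 0.05). 16 were higher in replicate 2 and 17 were lower. That is 28.2%, against 31.5% of all genes (13.7% higher and 17.8% lower). 17 neighbours differed at least 2-fold between replicate 2 and the others, 14.5% both for the neighbours and for all genes. The largest differences were those of si:dkey-36i7.3 (-4.83 on the log2 scale), slc5a2 (-3.32), ca4b, a carbonic anhydrase (-3.19), and aldoca, the glycolytic aldolase C (-2.63). aldoca had 327, 100 and 294 normalized counts in wild type and 801, 67.7 and 912 in mutants. Its mutant pools 1 and 3 were far above wild type and mutant pool 2 below it, so the genotype difference (0.79) missed even the unadjusted threshold. her13 (1.67), a hairy-related transcription factor gene, and egln2 (1.67), a prolyl hydroxylase of the hypoxia pathway, were higher in replicate 2 of both genotypes. 9 neighbours (7.69%) had both a replicate difference at an adjusted p under 0.05 and a genotype difference at an unadjusted p under 0.05, both from limma, against 6.57% of all genes. BX927244.1 and zgc:162193 were not among them.

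**Figure D5:**
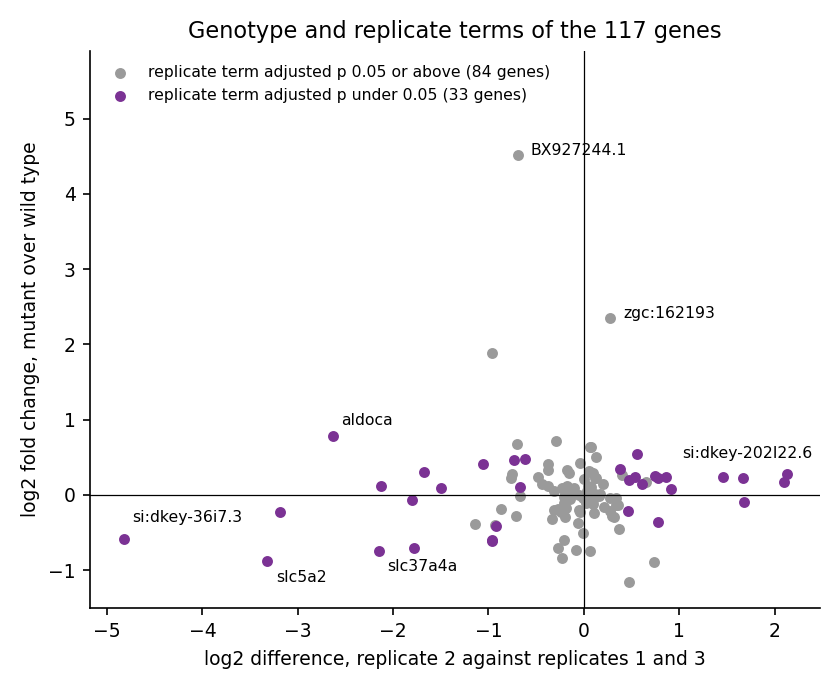
Log2 fold change between genotypes (vertical axis) against the log2 difference between replicate 2 and replicates 1 and 3 (horizontal axis) for the 117 neighbours, with the 33 genes past an adjusted p under 0.05 for the replicate difference in purple. The gene with the largest replicate difference, si:dkey-36i7.3 (-4.83), has a genotype change of -0.58 with overlapping groups. On the horizontal axis, BX927244.1 lies at -0.69 and zgc:162193 at 0.28.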

How the data were processed

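Strand-specific mRNA libraries of 3 wild-type and 3 dscaml1-/- pools were run on a NextSeq sequencer. TopHat2, HISAT2, HTSeq and GRCz11 appear in the submitters' notes, with no versions. The deposited signal values are read counts per gene that had been scaled, with 1 size factor for each library. Whole reads were recovered for 100% of values (tolerance 0.001 reads). The authors' own log2 fold changes, statistics and p-values in the deposited table come from their DESeq2 comparison and were not used. Every sample column was mapped by its name, with 0 left over.

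limma 3.58.1 (R 4.3.3) with a mean-variance trend was fitted to log2(value + 1) over 21302 genes with a mean of at least 5, with genotype and a term for replicate 2. Benjamini-Hochberg adjustment covered all of them. The fit leaves 3 residual degrees of freedom. Count tests on recovered reads, as alternatives, were the quasi-likelihood test of edgeR 4.0.16 (18 genes called, 2 of them neighbours) and the likelihood ratio test of DESeq2 1.42.0 (581 called). Distance is the gap between a gene model and dscaml1. Tables and plots used Python 3.11.15 with pandas 2.3.3, numpy 2.4.6, scipy 1.17.1 and matplotlib 3.10.9. The fits were tested on simulated data.

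Samples with the same replicate number deviated together (correlations of 0.651, 0.856 and 0.699), so the numbers were taken to pair the samples. Replicates 1 and 3 also correlated across numbers (0.500 and 0.346), and replicate 2 correlated negatively with both. Deviations were taken from the mean of the 3 libraries of each genotype. Once replicate 2 stands apart, part of this pattern follows from that centring, so it is weak support for pairing replicates 1 and 3 by number. This rests on the data, since the sources name no shared clutch or day. All pairs of libraries within a genotype differed by more than sampling noise, with a chi-square of 21.8 to 138 times its degrees of freedom.

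Named genes were those past an adjusted p of 0.05 in the limma fit or with a replicate block, and the 12 largest increases and decreases among those at an unadjusted p under 0.05 with 1 direction in 3 pairs. The rule also took the 5 nearest genes on each side, and genes without overlap and a log2 fold change of at least 1. Other genes are named only as context. The members, lists and rules were chosen with earlier results of these data known. Function groups match letters in descriptions, so that proca1 and hip1 were matched through "interacting" and calm3a through "kinase". SLC7A1 (1 of many), a solute carrier by its symbol (log2 fold change 0.20), has no such word in its description. It was therefore missed by the transport group. In the same way her8.2 and her13 were missed by the gene regulation group, so the groups are not full lists of a function. A gene name table held 114 of the 117 identifiers. 23 neighbours overlap another gene model. No genome sequence was used.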

Additional observations from a re-analysis of the deposited data

How the results depend on the processing

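The replicate block gave 2 neighbours higher and 0 lower at an adjusted p under 0.05 from limma, the same 2 genes. It changed no call among the neighbours and called 47 of all 21302 genes. At an unadjusted p under 0.05 from limma with this block, 29.1% of the neighbours and 18.2% of all genes passed. With it, zgc:162193 had an adjusted p of 0.00407 and BX927244.1 of 0.0190. The 2 higher became 5 with DESeq2 on recovered reads, 0 without the replicate 2 term and 0 without replicate 2 of both genotypes. Over all genes DESeq2 called 581, while the settings without the replicate 2 term and without replicate 2 called 0. Without 1 library they were 0 to 1, the 1 being BX927244.1 without replicate 1 of either genotype. Those fits called 0 to 12 of all genes. The count of lower genes, 0 from limma and edgeR, became 2 with DESeq2. The 18 neighbours without overlap became 20 to 39 without 1 library. The shares ran from 17.1% (all genes 14.9%) without wild-type replicate 3 to 33.3% (all genes 23.9%) without wild-type replicate 2. Without mutant replicate 2 they were 30.8% and 29.3%. Without replicate 2 of both genotypes, 61 did not overlap (52.1%, all genes 44.1%). Groups of fewer libraries overlap less by construction. The 33 neighbours with a replicate difference became 15 to 33 without 1 library. A window of 2 Mb held 30 genes. Of these, 7 did not overlap, or 23.3%, against 15.4% of the 117 and 9.62% of all genes. The 7 include BX927244.1, which passed the level filter only through its mutant pools. In the same window 12 had a replicate difference, or 40.0%, against 28.2% of the 117 and 31.5% of all genes. Without replicate 2 of either or both genotypes, 4 log2 fold changes reversed, to -0.25 for si:dkey-202l22.3, -0.10 for si:dkey-202l22.6, 0.057 for il10ra and -0.028 for BX901957.1, and the cause was not tested. Over fits without 1 library, their ranges were -0.25 to 0.44 for si:dkey-202l22.3, -0.1 to 0.67 for si:dkey-202l22.6, -0.46 to 0.057 for il10ra, -0.028 to 0.31 for BX901957.1. The Spearman correlation with distance was -0.09 without replicate 2 and -0.16 without mutant replicate 3. For the 31 named genes, 490 of the values under the alternatives kept direction and call, 14 lost and 5 gained a call, and 12 reversed. The settings without replicate 2 of either or both genotypes gave the same log2 fold changes. The 12 reversals therefore repeat the 4 genes given above, and lost calls repeat there too. Pseudocounts of 0.5 and 5, a mean of at least 20, no level filter, TMM rescaling, edgeR and protein_coding genes alone left all counts within 1.5 times. The setting without the 9 genes between 1 and 2 Mb and the one without BX927244.1 and zgc:162193 were chosen after seeing the data. With 3 pools per genotype, changes of the size seen in most neighbours could not be told from the spread between pools.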

Other observations

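The gene of the window closest below the level filter was clca1, of the calcium-activated chloride channel regulator family, which lies 1.88 Mb from dscaml1 between BX927244.1 and zgc:162193. Wild-type pools had 2.32, 0 and 0.591 normalized counts and mutant pools 16.9, 1.28 and 8.10. Mutant replicates 1 and 3 were above all wild-type pools, and mutant replicate 2 was below wild-type replicate 1. clca1 was chosen after its values were seen, and no test was made. Of the 54 genes below the filter, 3 had non-overlapping genotype groups, 2 of them higher and 1 lower in mutants. Among all genes that passed the filter the share was 9.62%. The means of the 3 were 3.64, 1.77 and 0.489 normalized counts, so they rest on few reads. 28 of the 54 were at 0 in every library and could not separate.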
